A study of Mus musculus with 17 samples.

Results

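Endothelial cells of bone marrow from wild-type (WT) mice were compared between 4 weeks and 2 weeks after tamoxifen, across all genes. The comparison takes every WT library by its time label, 5 libraries at 4 weeks and 4 at 2 weeks, 9 of the 17 libraries in the series. Tamoxifen was given at 8 weeks of age, so the animals were 10 and 12 weeks old at collection. The 2-week group holds 2 females (f1, f4) and 2 males (m2, m3), and the 4-week group 2 females (f, f3) and 3 males (m1, m2, m3). The study set them beside animals that lost Eng, the gene of the TGF-beta family co-receptor Endoglin, in endothelium (KO: a tamoxifen-inducible Cre under the Cdh5 promoter and loxP sites around exons 5 and 6 of Eng), 4 at each time. WT animals carry the same tamoxifen label as KO animals, the labels do not say whether they carry the Cre transgene, and no strain or animal without tamoxifen is named. Cells of crushed long bones were sorted as CD31 and Sca1 positive and CD45 and Ter119 negative (the series' design text leaves out Sca1), and their RNA was sequenced by SmartSeq2, which amplifies whole transcripts from little RNA and uses no molecular identifiers. Each library is 1 sample in the labels, which do not say what each library was pooled from, and p-values measure the spread between these samples.

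Marrow endothelium lines arterioles, capillaries and sinusoids, and it signals to blood stem cells as well as carrying blood. Its cells hold themselves together by cadherin and claudin junctions, rest on a basement membrane of collagen IV, laminin and perlecan, and transcribe immediate early genes quickly after stimuli such as flow, growth factors or injury. The labels give no collection or library date, and all 2-week libraries differed from all 4-week libraries in make-up, so that time, age and any batch cannot be told apart in what follows.

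At 2 weeks libraries held 32586272 to 40882715 counts, and at 4 weeks 24491896 to 33726630. Despite the larger totals, the 2-week libraries had counts for 11149 to 13424 genes and the 4-week libraries for 15996 to 21235; thinned to the smallest WT total the means were 12005 and 17978 genes. The 10 most abundant genes took 28.2% ± 2.49 of counts at 2 weeks and 10.4% ± 1.83 at 4 weeks (SD, n = 4 and 5), and mitochondrially encoded genes took 25.1% ± 2.43 and 6.66% ± 1.63. Both differences had an exact two-sided permutation p of 0.00794, the smallest that 126 assignments of 9 libraries allow (0.0193 after Benjamini-Hochberg adjustment over 17 library measures). Replicates were further apart at 2 weeks: across the well-measured genes defined below, Pearson's r between libraries was 0.782 to 0.871 at 2 weeks and 0.943 to 0.981 at 4 weeks, where genes are not independent. Among the 4-week libraries, f3 and m3 had more erythroid marker RNA than the others (1092 and 1176 against 168 to 267 counts per 1000000, summed over 12 markers and scaled as described next).

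The sort was checked against its markers. The gate's Pecam1 (CD31) and Ly6a (Sca1) had 825 to 1536 and 1711 to 1927 scaled CPM at 2 weeks and 2461 to 2745 and 1696 to 2842 at 4 weeks, where scaled CPM is the count per 1000000 of the library total multiplied by its TMM factor (a scaling factor from edgeR). Ptprc, which encodes the excluded CD45, had 0 counts in all 4 2-week libraries and at most 2.31 scaled CPM at 4 weeks. Eng itself, present in these WT cells, had 1207 (f1), 1177 (f4), 763 (m2) and 1583 (m3) scaled CPM at 2 weeks and 2279 (f), 2552 (f3), 2151 (m1), 2389 (m2) and 2313 (m3) at 4 weeks. The 2 groups did not overlap, but with the spread shared with the KO libraries the log2 fold change of 0.98 ± 0.42 (SE) did not pass the threshold (edgeR adjusted p = 0.216); in a fit of the 9 WT libraries alone it passed (adjusted p = 0.0224).

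Of 13515 genes tested, 1086 (8.04%) passed an adjusted p of 0.05, 776 higher (5.74%) and 310 lower (2.29%) at 4 weeks. The balance depended on the fit: with at least 10 counts in every library 310 were higher and 329 lower. With the replicate number as a block, which compares the times only within m2 and m3, the counts were 25 and 70. Those counts mix unlike kinds of gene. Of the 776, 406 came from 474 genes with 3 counts or fewer in each 2-week library (the floor used here) and more in each 4-week library, and 143 more from 356 genes at that floor in each 2-week library and in some 4-week library. The text therefore rests on 6412 genes that are not mitochondrially encoded and had at least 10 counts in each of the 9 libraries, called well measured here. Among them 451 passed (7.03%), 171 higher (2.67%) and 280 lower (4.37%), with a median log2 fold change of -0.101 over all 6412. For 164 of the 171 and 258 of the 280 the groups did not overlap, against 7.41% and 9.47% of all well-measured genes. Overlap was read in the libraries that gave the calls, and part of the named genes were chosen by it. Here and below it describes the calls and adds no support. Changes ran from 0.51 to 4.37 on the log2 scale for genes that rose, and their median was 1.37; the median of those that fell was -0.97. Calls were more frequent among abundant genes: in the most abundant 1278 well-measured genes 9.47% were higher and 16.1% lower, in the least abundant 1278 0.156% and 0.235%. With 4-week f3 and m3 left out together, 77 well-measured genes were higher and 157 lower, 229 of these 234 being among the 451. From here on, levels given as a mean carry the SD over 4 and 5 libraries, and a change given alone or with its SE is a log2 fold change, 4 weeks less 2 weeks.

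Genes that rose included immediate early genes, which encode short-lived transcription factors and signal regulators. Of 19 well-measured members of that list 11 were higher at 4 weeks and none lower, against 2.67% and 4.37% of all well-measured genes. The median log2 fold change of the list was 1.53. All 19 estimates lay above 0, against 2847 of 6412 over all well-measured genes. Junb (ENSMUSG00000052837, chromosome 8, 84974484 to 84978718, minus strand), a partner in the AP-1 factor, had 194 (f1), 347 (f4), 149.7 (m2) and 356 (m3) scaled CPM at 2 weeks. At 4 weeks it had 2726 (f), 1869.5 (f3), 2430.3 (m1), 2080.3 (m2) and 2303 (m3). The lowest 4-week library was thus above the highest 2-week library, with a log2 fold change of 3.09 ± 0.29 (SE) and an adjusted p of 2.65e-05 (edgeR). An exon of Prdx2 overlaps Junb on the other strand, and no strand setting of the counting is known. Fos, the other AP-1 partner, had 56.3 (f1), 205 (f4), 255 (m2) and 401 (m3) scaled CPM at 2 weeks and 2667 (f), 2336 (f3), 2209 (m1), 2397 (m2) and 2629.9 (m3) at 4 weeks. Its groups did not overlap either (log2 fold change 3.46 ± 0.53 SE, edgeR adjusted p = 0.0013), and 2-week f1 was the lowest library. Jun rose from 261 ± 78.8 to 1106 ± 201 scaled CPM, and Junos, which is transcribed from the other strand of Jun and shares its exons in part, by 1.98 ± 0.24 (SE).

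The largest estimates among well-measured genes were those of Ccn1 and Ier3. Ccn1, a matricellular protein gene that responds to serum and stretch, had 24.97 (f1), 65.6 (f4), 15.4 (m2) and 80.8 (m3) scaled CPM at 2 weeks and 957 (f), 1006 (f3), 1024 (m1), 732 (m2) and 1092 (m3) at 4 weeks. This is a log2 fold change of 4.37 ± 0.51 (SE, edgeR adjusted p = 0.000156). Ier3, a regulator of survival signalling, had 24.8 (f1), 75.9 (f4), 80.1 (m2) and 49.1 (m3) scaled CPM at 2 weeks and 887 (f), 875 (f3), 929 (m1), 741 (m2) and 1132 (m3) at 4 weeks. Its log2 fold change was 3.99 ± 0.47 (SE, edgeR adjusted p = 0.000176), and 2-week f1 was the lowest library here too. The other members that rose were Egr1 (2.501), Zfp36 (2.27), which encodes an mRNA decay factor, Nr4a1 (1.94), Ier2 (1.53), Klf4 (1.51) and the phosphatase gene Dusp1 (1.42). Socs3 had a larger estimate, 3.36 ± 1.07 (SE), but missed the threshold (edgeR adjusted p = 0.0729). Rhob, Btg2 and Klf6 had log2 fold changes of 0.12, 0.15 and 0.24, so members of the list differed widely.

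Upstream sequences of 3 of these genes are shown because the factors that act on immediate early genes, CREB and the serum response factor, have known short motifs. They are the 250 bases before the RefSeq start on GRCm38.p6, in gene orientation, with the match in capitals: the core of the cAMP response element, TGACGT or its reverse complement ACGTCA, in Fos (chr12:85473640-85473889, plus strand) and Ccn1 (chr3:145649986-145650235, minus strand), and a CArG box in Zfp36 (chr7:28379229-28379478, minus strand).
Fos: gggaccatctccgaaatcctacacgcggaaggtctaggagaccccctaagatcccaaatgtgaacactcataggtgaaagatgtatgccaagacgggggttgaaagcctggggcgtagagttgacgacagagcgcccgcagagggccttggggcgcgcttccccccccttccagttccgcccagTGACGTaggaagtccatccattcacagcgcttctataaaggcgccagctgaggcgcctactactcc
Ccn1: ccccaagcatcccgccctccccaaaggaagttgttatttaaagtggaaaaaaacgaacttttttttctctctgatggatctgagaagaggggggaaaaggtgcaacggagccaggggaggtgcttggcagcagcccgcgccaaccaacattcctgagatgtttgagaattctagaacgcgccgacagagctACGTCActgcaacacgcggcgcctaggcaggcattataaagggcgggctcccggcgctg
Zfp36: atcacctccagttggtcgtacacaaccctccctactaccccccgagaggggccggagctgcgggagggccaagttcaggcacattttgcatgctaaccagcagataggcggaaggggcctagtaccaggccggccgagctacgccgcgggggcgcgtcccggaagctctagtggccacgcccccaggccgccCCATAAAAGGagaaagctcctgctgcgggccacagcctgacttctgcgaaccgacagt
Of the 11 members that rose, 9 had a promoter in the table. The response element core was in 3 of the 9 (Fos, Ccn1 and Dusp1), in 4 of the 17 well-measured members with a promoter, in 10.8% of the 4399 promoters of well-measured genes and in 6.43% of 27025 promoters in all, searched the same way on both strands. The CArG box was in 1 of the 9, in 1 of the 17, in 1.25% of the 4399 and in 1.39% of all. The Fos match starts 66 bases before the start and the Zfp36 match 58 bases before it. A match describes these letters and shows no binding.

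**Figure D1:**
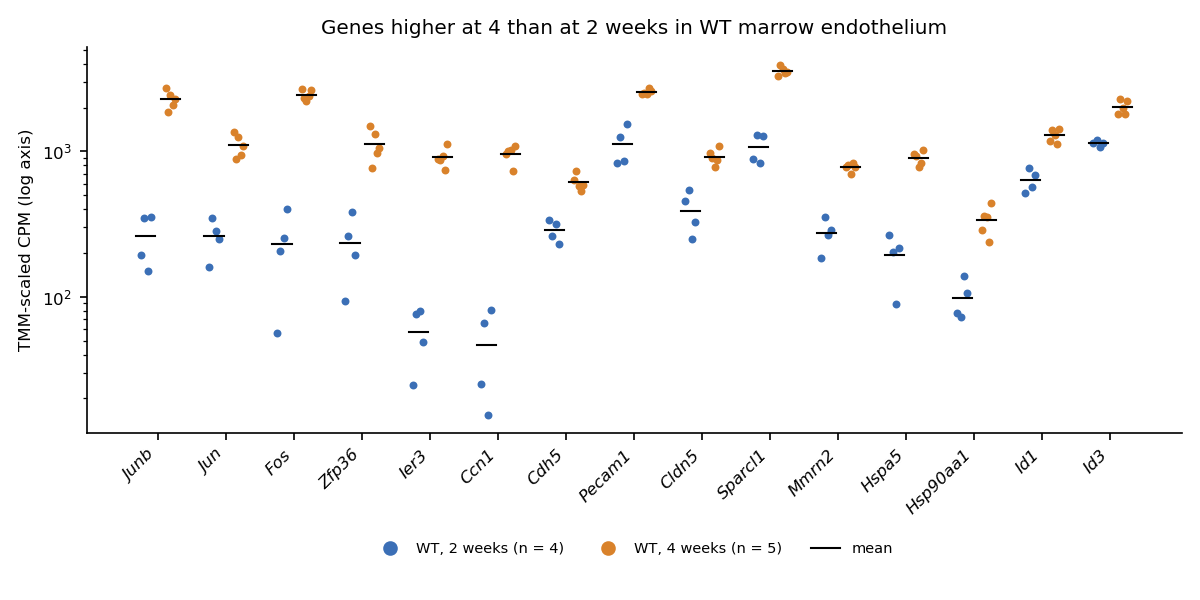
TMM-scaled CPM (log axis) of 15 genes that rose in WT marrow endothelium, each point 1 library (4 at 2 weeks, 5 at 4 weeks) and each bar a group mean. No 4-week point of a gene lies below its highest 2-week point, and Ccn1 and Ier3 are the furthest apart.

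Of 18 well-measured genes of the heat shock and chaperone list, which help proteins fold, 6 were higher, 12 did not pass and none was lower (median log2 fold change 0.588). Over all well-measured genes 2.67% were higher and 4.37% lower. Hspa5, the main chaperone of the endoplasmic reticulum, had 268 (f1), 202 (f4), 89.2 (m2) and 215 (m3) scaled CPM at 2 weeks and 959 (f), 922 (f3), 786 (m1), 825 (m2) and 1022 (m3) at 4 weeks. Its groups were far apart (log2 fold change 2.23 ± 0.32 SE, edgeR adjusted p = 0.000876). Hsp90aa1, the inducible cytosolic HSP90, went from 98.8 ± 30.8 to 336 ± 76.9 scaled CPM. The other members that rose were Dnajb1 (1.87), Dnaja1 (1.03), Hspa8 (0.805) and Hsp90ab1 (0.67). The chaperonin subunits Tcp1, Cct2, Cct3 and Cct5 had estimates of -0.19, 0.074, 0.33 and -0.35, and none passed.

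Of 26 well-measured members of the pan-endothelial list, genes that define endothelium, 10 rose, 16 did not pass and none fell, with a median log2 fold change of 0.723. The shares of all well-measured genes were 2.67% higher and 4.37% lower. Cdh5 (ENSMUSG00000031871, chromosome 8, 104101625 to 104144511, plus strand) encodes VE-cadherin, the adhesion molecule of endothelial junctions. It had 338 (f1), 262 (f4), 317 (m2) and 230.2 (m3) scaled CPM at 2 weeks and 632 (f), 735 (f3), 576 (m1), 532 (m2) and 583 (m3) at 4 weeks. All 4-week libraries were above all 2-week libraries (log2 fold change 1.11 ± 0.14 SE, edgeR adjusted p = 0.000354). Pecam1, whose product was used for the sort, had 825 (f1), 1264 (f4), 860.0 (m2) and 1536 (m3) scaled CPM at 2 weeks and 2489 (f), 2518 (f3), 2461 (m1), 2745 (m2) and 2609 (m3) at 4 weeks. Its log2 fold change was 1.18 ± 0.16 (SE, edgeR adjusted p = 0.000647), and the 4-week libraries lay closer together than the 2-week ones. With the replicate number as a block, Pecam1 did not pass (edgeR adjusted p = 0.145). Cldn5, a tight junction claudin, rose by 1.303 ± 0.19 (SE), Plvap, which forms the diaphragms of fenestrae, by 1.79 ± 0.34 (SE), and Emcn, a sialomucin of capillaries and veins, by 1.36 ± 0.24 (SE). Mcam, Podxl, Cd93, Ptprb and Esam were the other members that rose (1.51, 0.88, 0.84, 0.99 and 0.62). The call of Ptprb ended without 4-week f (edgeR adjusted p = 0.0682), 2-week f1 (0.0581) or 2-week m2 (0.0529), and in limma the adjusted p of Ptprb and Plvap were 0.240 and 0.0813. Among the genes of lineage transcription factors none passed: Erg, Fli1, Sox17, Sox18 and Ets1 had estimates of 0.14, 0.24, 0.19, -0.16 and -0.74. In bulk libraries, fewer cells of a type and less RNA per cell cannot be told apart. The share of counts taken by mitochondrial genes moved with these genes in the opposite direction. With mitochondrial genes left out before scaling, 436 well-measured genes passed (171 higher, 265 lower), all of them among the 451. Beyond the scaling, the part of that share in the result was not tested.

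Among junction genes 5 rose and 1 fell of 19 well measured; the counts of this and the next 3 lists stand beside 2.67% higher and 4.37% lower over all well-measured genes. The one that fell was Ctnnb1, encoding beta-catenin, from 633 ± 152 to 397 ± 66.9 scaled CPM (log2 fold change -0.68 ± 0.17 SE, edgeR adjusted p = 0.0283); the call ended without 4-week f (-0.595), m2 (-0.646) or m3 (-0.668) and without 2-week f4 (-0.564) or m3 (-0.572), with adjusted p of 0.0644 to 0.0839. Of the arterial list 4 of 16 rose, namely Nrp1 (1.44), Dll4 (1.71), Notch1 (2.17) and Igfbp3 (0.97). Of the sinusoidal and venous list 2 of 12 rose, Icam1 (2.73 ± 0.46 SE), the leukocyte adhesion molecule, and Ephb4 (1.297 ± 0.26 SE), the venous ephrin receptor. The median log2 fold changes of the 2 lists were 0.665 and 1.14. In the Notch list 3 of 10 rose, Dll4, Notch1 and the target Hes1 (2.25). Dll4, the endothelial Notch ligand, had 123 (f1), 22.6 (f4), 128 (m2) and 50.1 (m3) scaled CPM at 2 weeks and 369.5 (f), 226 (f3), 257 (m1), 205 (m2) and 261 (m3) at 4 weeks. The groups did not overlap, but the call ended without 4-week f (log2 fold change 1.48, edgeR adjusted p = 0.0694) or 2-week m3 (1.51, adjusted p = 0.0526). Hes1 lost its call without any 1 of the 9 WT libraries (1.90 to 2.47), Notch1 without any but 2-week m2 (1.82 to 2.39) and Igfbp3 without any but 2-week f4 (0.805 to 1.04). With f3 and m3 left out together, no member of the Notch list passed.

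The basement membrane list had 5 of 18 well-measured members higher and none lower, against 2.67% and 4.37% of all well-measured genes. Its median log2 fold change was 1.34. Mmrn2, a ligand of CD93 in the vessel wall, had 184 (f1), 354 (f4), 267 (m2) and 286 (m3) scaled CPM at 2 weeks and 776 (f), 803 (f3), 698 (m1), 835 (m2) and 781 (m3) at 4 weeks. It rose by 1.502 ± 0.18 (SE, edgeR adjusted p = 0.000236). Col4a1, a chain of collagen IV, had 800.2 (f1), 823 (f4), 642 (m2) and 535 (m3) scaled CPM at 2 weeks and 2952 (f), 1480.2 (f3), 2386 (m1), 2680.2 (m2) and 1295 (m3) at 4 weeks. The 4-week f3 and m3 were nearer to the 2-week libraries than the other 3, and the rise was 1.63 ± 0.25 (SE, edgeR adjusted p = 0.00121; in limma 0.119). Sparcl1 rose by 1.74 ± 0.27 (SE), Col4a2 by 1.33 ± 0.21 (SE) and Hspg2, encoding perlecan, by 1.36 ± 0.32 (SE). The laminin chains Lama4, Lama5, Lamb1 and Lamc1 had estimates of 1.95, 1.97, 0.57 and 1.72 and did not pass.

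Of the TGF-beta and BMP list, to which Eng belongs, 3 of 19 well-measured members rose and none fell. Over all well-measured genes 2.67% rose and 4.37% fell. All 3 that rose encode ID proteins, inhibitors of helix-loop-helix factors and targets of BMP receptor signalling. Id3 had 1144 (f1), 1204 (f4), 1063 (m2) and 1136 (m3) scaled CPM at 2 weeks and 1818 (f), 2278 (f3), 2000.3 (m1), 1807 (m2) and 2228 (m3) at 4 weeks. The spread within each group was small beside the gap (log2 fold change 0.84 ± 0.101 SE, edgeR adjusted p = 0.000192). Id1 rose from 635 ± 113 to 1287 ± 133 scaled CPM and Id2 from 70.2 ± 37.6 to 216 ± 55.9. The receptor genes Acvrl1, Bmpr2, Tgfbr1 and Tgfbr2 had estimates of 0.99, 1.05, 1.11 and 1.45, and Smad1 and Smad5 of -0.61 and -0.66; none passed.

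Further genes with small p-values stood outside those lists or in several. Adcy4, an adenylyl cyclase gene, had 104 (f1), 175 (f4), 130.1 (m2) and 165 (m3) scaled CPM at 2 weeks and 366 (f), 489.8 (f3), 455 (m1), 488 (m2) and 387 (m3) at 4 weeks (log2 fold change 1.61 ± 0.17 SE, edgeR adjusted p = 6.76e-05). Actn4, an actin cross-linker, rose by 1.39 ± 0.17 (SE). Irf1, a transcription factor of the interferon and cytokine response, went from 131 ± 15.1 to 441 ± 50.9 scaled CPM, opposite in direction to Irf7 described below. Plk2, listed among p53 targets and also a gene of serum response, rose by 2.29 ± 0.298 (SE), while other p53 targets except Ephx1 (1.15; in limma an adjusted p of 0.0989) did not pass. Of 36 well-measured splicing and RNA-binding genes 5 rose and none fell, against 2.67% and 4.37% of all well-measured genes. The median log2 fold change of the list was 0.365. Those that rose were Srrm2 (2.57), Ddx5 (1.45, in limma an adjusted p of 0.0544), Rbm25 (1.399), Srsf5 (1.05) and Rbm39 (1.04). Malat1, a long RNA kept in the nucleus, had 871 (f1), 611 (f4), 505 (m2) and 561 (m3) scaled CPM at 2 weeks and 1439 (f), 3887 (f3), 1922 (m1), 1345 (m2) and 3702 (m3) at 4 weeks. Its 4-week values split, with f3 and m3 well above the other 3, and the log2 fold change was 2.02 ± 0.400 (SE, edgeR adjusted p = 0.00671); without f3 and m3 it was 1.42 (adjusted p = 0.0561), and limma gave an adjusted p of 0.325.

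Genes that fell were led in number by the machinery of translation. Of 80 well-measured genes for cytosolic ribosomal proteins 44 were lower and none higher, and the median log2 fold change was -0.526. Of all well-measured genes 4.37% were lower, and of the most abundant 1278 16.1%. Only 4 of the 80 had an estimate above 0. Rplp0 (ENSMUSG00000067274, chromosome 5, 115559467 to 115563727, plus strand), a protein of the ribosomal stalk, had 3571 (f1), 2952 (f4), 3221 (m2) and 3562 (m3) scaled CPM at 2 weeks. At 4 weeks it had 1305 (f), 1415 (f3), 1214 (m1), 1346 (m2) and 1552 (m3). The highest 4-week library was far below the lowest 2-week library (log2 fold change -1.28 ± 0.11 SE, edgeR adjusted p = 1.61e-05). Rps2 had 1557 (f1), 1608 (f4), 1623 (m2) and 1599.5 (m3) scaled CPM at 2 weeks and 641 (f), 795 (f3), 573 (m1), 672 (m2) and 820.4 (m3) at 4 weeks, a log2 fold change of -1.18 ± 0.15 (SE, edgeR adjusted p = 0.000236). Rps3 fell less, by 0.82 ± 0.090 (SE). At the other end of the list Rpl17, Rpl7l1, Rps27l, Rpl36al and Rpl22l1 had estimates of -0.034, 0.010, 0.057, 0.15 and 0.31, the last 4 of which are variants or paralogs of the standard proteins. Many ribosomal protein genes have processed copies in the genome, and the counts of single members are uncertain to that extent. Summed over the list, these genes took 5.09% ± 0.137 of counts at 2 weeks and 4.02% ± 0.331 at 4 weeks (SD, exact two-sided permutation p = 0.00794, the smallest possible), although mitochondrial genes took more of the 2-week total.

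Of 35 well-measured translation factors, which work with the ribosome, 14 were lower, 20 did not pass and 1 was higher (median log2 fold change -0.399). Among all well-measured genes 4.37% were lower and 2.67% higher. Eef1a1, the elongation factor that brings aminoacyl-tRNA, had 7021 (f1), 8875 (f4), 10041 (m2) and 13972 (m3) scaled CPM at 2 weeks and 4058 (f), 5215 (f3), 4399.7 (m1), 4598 (m2) and 4443 (m3) at 4 weeks. The groups did not overlap, and 2-week m3 was the highest (log2 fold change -1.13 ± 0.15 SE, edgeR adjusted p = 0.000514). Eef2, the translocase, fell from 2399 ± 586 to 1134 ± 43.96 scaled CPM, and 6 subunits of initiation factor 3 fell, among them Eif3f (-1.33 ± 0.19 SE). The factor that rose was Eif1 (0.58 ± 0.088 SE), which selects the start codon, with 408 to 463 scaled CPM at 2 weeks and 621 to 697 at 4 weeks. Rack1, a scaffold on the small ribosomal subunit, fell by 0.99 ± 0.096 (SE). Of 63 well-measured genes of mitochondrial translation 1 was lower (Mrpl10, -1.21, without f3 and m3 an edgeR adjusted p of 0.0736) and none higher, with a median of -0.146. That share lower was below the 4.37% of all well-measured genes.

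**Figure D2:**
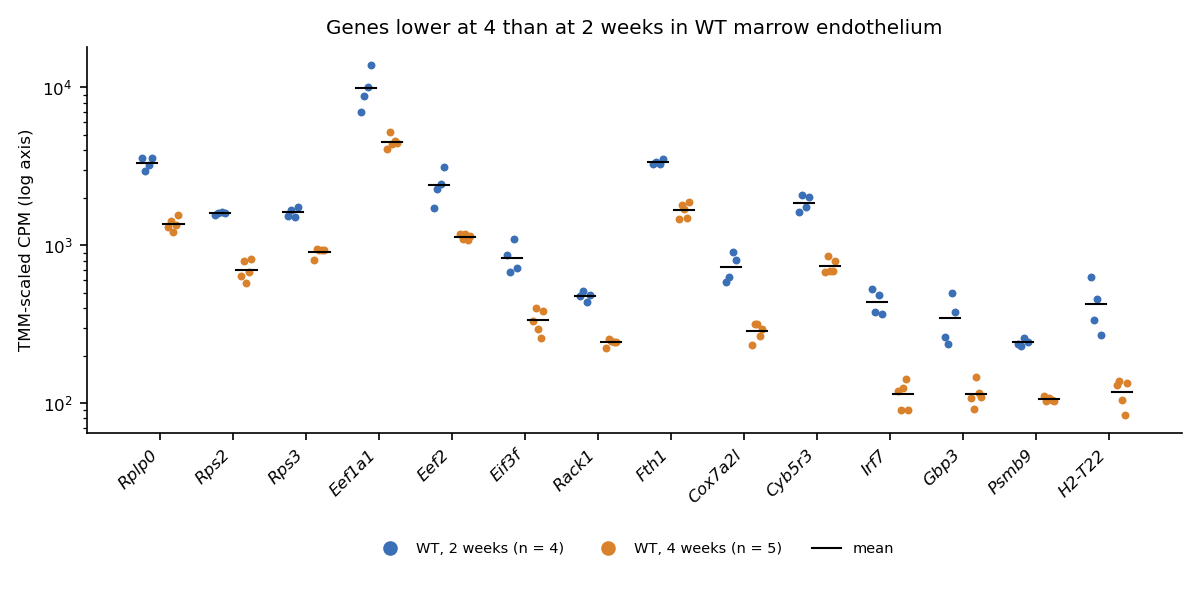
TMM-scaled CPM (log axis) of 14 genes that fell in WT marrow endothelium, each point 1 library and each bar a group mean. In each gene shown every 4-week point lies below every 2-week point.

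Of 29 well-measured genes of the interferon response 4 were lower and none higher (of all well-measured genes 4.37% and 2.67%), with a median log2 fold change of -0.333. Irf7 (ENSMUSG00000025498, chromosome 7, 141262706 to 141266481, minus strand), the transcription factor that amplifies type I interferon, had 527 (f1), 379 (f4), 481 (m2) and 366 (m3) scaled CPM at 2 weeks. At 4 weeks it had 119 (f), 90.9 (f3), 124 (m1), 143 (m2) and 90.9 (m3). No libraries overlapped, and the log2 fold change was -1.94 ± 0.203 (SE, edgeR adjusted p = 6.61e-05). Gbp3, a guanylate-binding protein gene, fell from 345 ± 120.4 to 115 ± 20.3 scaled CPM, Oas1a, a sensor of double-stranded RNA, by 2.06 ± 0.42 (SE), and Ifit3, a binder of foreign RNA, by 1.21 ± 0.27 (SE). Isg15, another standard target, did not pass, with 10.5 ± 6.51 scaled CPM at 2 weeks and 12.3 ± 5.86 at 4 weeks.

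The upstream sequences of Ifit3 (chr19:34583279-34583528, plus strand) and Oas1a (chr5:120907526-120907775, minus strand) are shown as members that fell with a clear interferon-stimulated response element, searched as GAAANNGAAA on both strands. They are given as above, with matches in capitals; those of Oas1a overlap.
Ifit3: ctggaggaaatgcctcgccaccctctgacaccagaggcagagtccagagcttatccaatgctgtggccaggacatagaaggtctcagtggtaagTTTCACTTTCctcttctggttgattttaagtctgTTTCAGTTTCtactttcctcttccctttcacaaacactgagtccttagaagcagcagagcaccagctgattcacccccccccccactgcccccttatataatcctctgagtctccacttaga
Oas1a: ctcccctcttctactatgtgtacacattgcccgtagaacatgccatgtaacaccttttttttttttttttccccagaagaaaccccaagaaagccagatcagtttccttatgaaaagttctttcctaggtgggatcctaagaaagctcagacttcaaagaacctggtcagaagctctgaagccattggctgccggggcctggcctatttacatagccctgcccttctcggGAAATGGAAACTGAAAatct
The motif was in 3 of the 4 members that fell (Gbp3, Ifit3 and Oas1a) in 2.86% of the 4399 promoters of well-measured genes and in 3.06% of 27025 in all; Irf7 had none in this window. Members that did not pass held it too: it was in 12 of the 23 well-measured members of the list that had a promoter in the table.

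Antigen presentation was split. Of 17 well-measured genes of the MHC class I list 4 fell and 2 rose, against 4.37% and 2.67% of all well-measured genes. Those that fell were the 3 inducible subunits of the immunoproteasome and a nonclassical class I gene. Psmb9 had 238 (f1), 229 (f4), 259.8 (m2) and 243 (m3) scaled CPM at 2 weeks and 110.4 (f), 104 (f3), 108 (m1), 104 (m2) and 104 (m3) at 4 weeks, with a gap wider than either group (log2 fold change -1.203 ± 0.13 SE, edgeR adjusted p = 9.83e-05). Psmb8 fell by 0.95 ± 0.17 (SE) and Psmb10 by 0.82 ± 0.17 (SE), and H2-T22 fell from 422 ± 157 to 118 ± 23.2 scaled CPM. H2-K1, a classical class I heavy chain, rose by 0.65 ± 0.13 (SE) and Pdia3, of the peptide-loading complex, by 1.26 ± 0.24 (SE). In limma their adjusted p were 0.0662 and 0.0707, and in edgeR without 4-week f3 and m3 0.0502 and 0.0626. B2m and H2-D1 had estimates of 0.39 and 0.28 and did not pass. In the standard proteasome 1 of 31 well-measured subunits fell, the ATPase Psmc5 (-0.88), a share near the 4.37% of all well-measured genes.

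Further genes that fell are given singly. Fth1, the ferritin heavy chain, had 3266 (f1), 3377 (f4), 3283 (m2) and 3530.2 (m3) scaled CPM at 2 weeks and 1459.8 (f), 1787 (f3), 1706 (m1), 1486 (m2) and 1873 (m3) at 4 weeks. Both groups were narrow (log2 fold change -1.02 ± 0.104 SE, edgeR adjusted p = 5.25e-05). Cox7a2l, which joins respiratory complexes, fell by 1.37 ± 0.13 (SE), Cyb5r3, a cytochrome b5 reductase, by 1.33 ± 0.14 (SE), and Tmem134 by 1.58 ± 0.15 (SE). Kctd10 fell by 1.703 ± 0.16 (SE) and Myo1h by 1.75 ± 0.16 (SE); they overlap on opposite strands, so reads of one could be counted for the other. Of 75 nuclear genes for respiratory chain subunits 3 fell (Ndufa2, Sdhc and Atp5d) and none rose, with a median of -0.155; both are near the background of all well-measured genes (4.37% lower, median -0.101). None of the 3 passed without 4-week f (edgeR adjusted p = 0.0707, 0.0551 and 0.117) or 2-week m2 (0.0571, 0.0638 and 0.133). Ndufa2 also failed without 4-week f3 or m3, Sdhc without 4-week f3, m1 or m2 or 2-week f1, and Atp5d without 4-week m1 or m2, 2-week f4 or m3 or 4-week KO f2 or m1. None of 19 well-measured genes of glycolysis and hypoxia passed, with Ldha at 879 ± 131 and 708 ± 83.2 scaled CPM. Among cell cycle genes the D-type cyclins Ccnd1, Ccnd2 and Ccnd3 fell (-1.23, -0.83 and -0.89), and Pcna, the clamp of replication, rose (1.53, without f3 and m3 an edgeR adjusted p of 0.0832 and in 1 limma fit 0.0639); without 4-week f no cyclin passed (-1.17, -0.759 and -0.924, edgeR adjusted p = 0.0815, 0.0616 and 0.055), and Ccnd1 also failed without 4-week f3 or m1 or 2-week f1 or m3, Ccnd2 without m3 of either time and Ccnd3 without 2-week f1 (-0.666 to -1.26 over these). In the lipid lists Scd1, a fatty acid desaturase, fell (-2.31; -2.05 to -2.25 and short of the threshold without 4-week f3 or m3 or 2-week f1 or m2), while Lpl and Gpihbp1, the lipase of capillaries and its anchor, rose (1.15, in limma short of the threshold with an adjusted p of 0.118, and 0.65) and the caveolar coat gene Cavin1 fell (-0.88). Without f3 and m3 neither Gpihbp1 nor Cavin1 passed (edgeR adjusted p = 0.0809 and 0.0875), nor Gpihbp1 in 1 limma fit (0.0558). In the cytoskeleton list Tuba1b and Tpm3 fell (-0.79 and -0.64) and Myh9, non-muscle myosin, rose (1.41), of 29 well measured. The shares of all well-measured genes were 4.37% lower and 2.67% higher. Tpm3 did not pass without 4-week f or m1 or 2-week m2 or m3 (edgeR adjusted p = 0.0512 to 0.0627) or in limma (0.0631), nor Myh9 in limma (0.0654). Of Actb and Gapdh, often used as references, neither passed (-0.047 and -0.27).

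Some of the smallest p-values belonged to nuclear copies of mitochondrial genes. Of 15 pseudogenes that match a mitochondrially encoded gene at 90% identity or more over at least 80% of their length, 13 were well measured and 12 of these fell. The 5 with the smallest p-values, Gm28437, Gm10925, Gm28439, Gm28661 and Gm29216, had log2 fold changes of -2.56, -2.59, -2.58, -2.37 and -2.45. Of 25 mitochondrially encoded genes tested 21 fell, with a median of -2.32. Reads of the mitochondrial genes can be counted for these copies, and their values cannot be told apart from those of their originals.

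**Figure D3:**
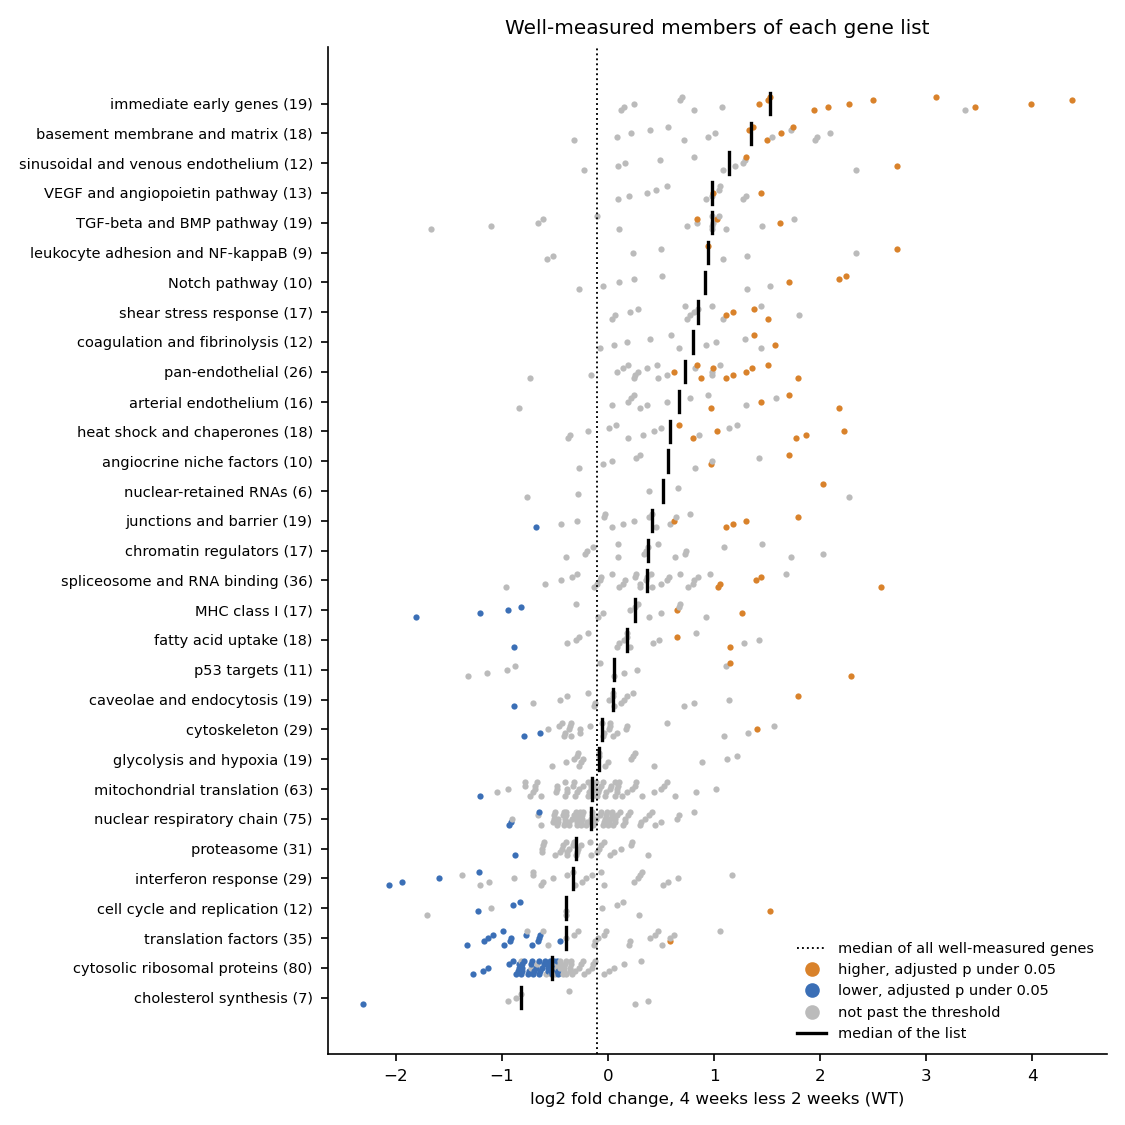
Log2 fold change (4 weeks less 2 weeks, WT) of the well-measured members of 31 gene lists with at least 5 such members, each point 1 gene and each bar the median of a list; the dotted line is the median of all 6412 well-measured genes. Immediate early genes stand furthest to the right with 11 of 19 past the threshold, and ribosomal proteins form a narrow band to the left with 44 of 80.

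Genes found in 4-week and missing from 2-week libraries were the other large class. Of 12315 genes with over 3 counts in every 4-week library, 56.9% had over 3 counts in all 4 2-week libraries, while 4.50% were at the floor in all 4. The share with counts in all 4 was 97.6% for genes over 100 scaled CPM at 4 weeks, 60.0% for 10 to 100 and 27.4% for 1 to 10; it was 70.8% under 1. In the other direction, 96.9% of 7239 genes over the floor in every 2-week library were over it in every 4-week library. Genes also came and went between 2-week replicates: of 11648 genes with 100 counts or more in some 2-week library, 45.8% had at most 3 in another, against 13.5% of 12783 at 4 weeks. Genes at the floor are therefore described as detected or not detected, and no fold change is drawn from their fit.

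**Figure D4:**
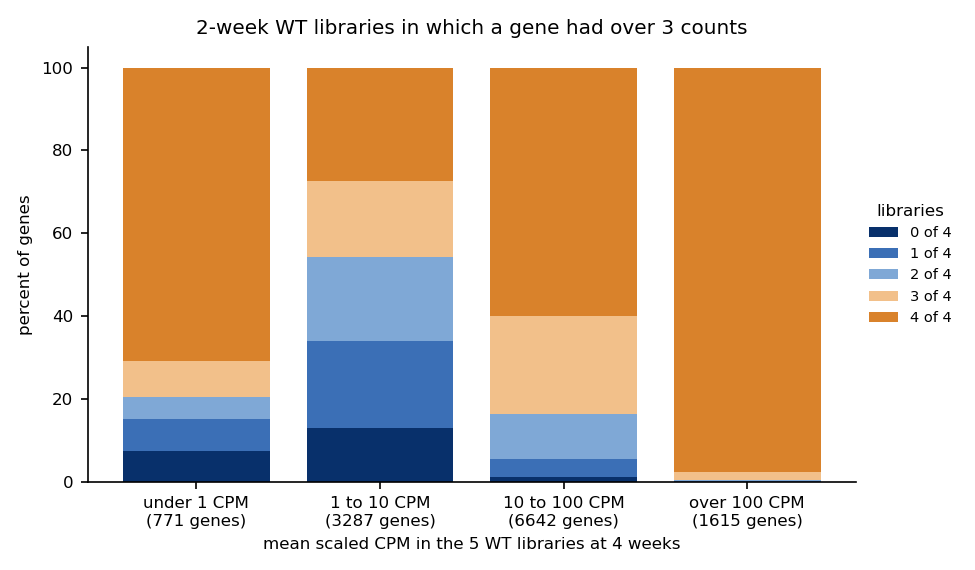
Percent of genes (vertical axis) by the number of 2-week WT libraries in which they had over 3 counts, for genes over 3 counts in all 5 4-week WT libraries, grouped by their mean scaled CPM at 4 weeks. Of genes over 100 CPM 97.6% were found in all 4 2-week libraries, and of genes at 1 to 10 CPM 27.4%.

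Of the genes at the floor in every 2-week library, those with the smallest p-values were Egr2, Arc, Ces2e, Apoh and Gm37452. Arc, an immediate early gene best known in neurons, had 0 counts in every 2-week library and 118 (f), 47.7 (f3), 97.3 (m1), 51.4 (m2) and 101 (m3) scaled CPM at 4 weeks. Egr2, an early zinc-finger factor, had 0 counts in f1 and m3 and 1 count in f4 and m2 at 2 weeks, and 76.99 (f), 31.02 (f3), 49.8 (m1), 85.2 (m2) and 67.00 (m3) scaled CPM at 4 weeks. Ces2e, a carboxylesterase, had 0 counts at 2 weeks and 24.8 (f), 17.8 (f3), 13.7 (m1), 46.5 (m2) and 36.99 (m3) scaled CPM at 4 weeks; in KO every 2-week library held it, with 245 to 1404 counts, and every 4-week library, with 446 to 2120. Dusp5 and Nr4a2, also early genes, were at the floor at 2 weeks and reached 2.48 to 11.4 and 27.8 to 73.8 scaled CPM. Of 6642 genes at 10 to 100 scaled CPM at 4 weeks 1.10% were at the floor in all 4 2-week libraries, and of 3287 genes at 1 to 10 scaled CPM 12.9%. Of the 474 genes, 181 (38.2%) were at the floor in every 2-week KO library as well, against 4.84% of the 12094 tested genes over the floor in every 4-week WT library. Both at the floor in every 2-week KO library and over it in every 4-week one were 143 of the 474 (30.2%), against 3.92% of the 12094, and 4 of the 474 were over it in every 2-week KO library.

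Markers of other marrow cells were summed in each library. Neutrophil markers reached 24.5 to 133 scaled CPM at 2 weeks and 20.2 to 87.5 at 4 weeks, with 4 to 8 and 0 to 5 of 12 markers at 0 counts. Megakaryocyte markers reached 4.09 to 71.98 and 11.1 to 35.97, and T and NK cell markers 0 to 1.14 and 0 to 4.40. Monocyte and macrophage markers reached 28.7 to 106 and 102 to 159 scaled CPM, with 5 to 8 and 2 to 5 of 12 markers at 0 counts (exact two-sided permutation p = 0.0159, adjusted over 17 measures 0.0337). Blood stem and progenitor markers, mainly Cd34, which endothelium also expresses, reached 773 to 1325 and 1312 to 1762, with 7 to 9 and 3 to 7 of 12 at 0 counts (exact two-sided permutation p = 0.0238, adjusted over 17 measures 0.0450). Stromal markers, mainly Cxcl12 and Rgs5, reached 1934 to 3306 and 1646 to 4748, and osteoblast markers 195 to 345 and 257 to 319. No well-measured member of any of the 10 marker lists passed the test, although Cd34 did with at least 10 counts in every library (edgeR adjusted p = 0.0423) and in DESeq2 (0.0472). Few members could pass: the T and NK cell, megakaryocyte and chondrocyte lists had 0 well-measured members. The neutrophil, B cell, and monocyte and macrophage lists had 1 each. Among members not well measured, Slc4a1 (erythroid) and Comp (chondrocyte) passed as higher. Both had 0 counts in every 2-week library, and 65 to 223 and 56 to 443 counts at 4 weeks. Erythroid markers, mainly globin genes, reached 74.4 to 273 and 168 to 1176, with 6 to 8 and 0 to 4 of 12 markers at 0 counts (p = 0.230 for the sum by the same exact permutation test). The part of these cells in the results was not tested.

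The same interval can be read in the 8 KO libraries, which come from other animals but share the time labels and the make-up that goes with them, with a mitochondrial share of 22.2% to 29.5% early and 5.62% to 8.74% late. Of the 171 well-measured genes higher in WT, 168 had a positive estimate in KO and 110 passed there, 64.3% of the WT and 54.7% of the KO calls, where 3.13% of these genes were called higher in KO. Of the 280 lower genes, 275 had a negative estimate in KO and 176 passed, 62.9% of the WT and 80% of the KO calls, with 3.43% of genes called lower in KO. Over all genes tested, 5.7% were higher and 1.86% lower in KO. No well-measured gene was called in opposite directions. WT and KO were in one fit with a shared spread in those counts; fitted separately (over all genes 5.46% higher and 1.93% lower in WT), 73 of 182 higher and 110 of 249 lower well-measured WT calls also passed in KO, where 1.97% of well-measured genes were called higher and 2.25% lower. Junb had a log2 fold change of 3.92 in KO, Cdh5 1.27, Hspa5 2.36, Rplp0 -1.29, Eef2 -1.21 and Irf7 -2.08, each past the threshold. In the lists, KO had 12 immediate early genes higher (WT 11), 11 pan-endothelial genes higher (10), 47 ribosomal protein genes lower (44) and 3 interferon genes lower (4). The difference between the time changes of KO and WT passed for 14 of 13515 genes (0.104%). Of these, 10 had at most 1 count in every 2-week KO library and 3 in every 2-week WT library, so 13 of the 14 passed through the groups in which they had counts, and no fold is drawn from their fit. The other, Vps4a, had 3925 to 6686 counts early and 2387 to 3841 late in WT, against 938 to 1928 early and 2314 to 3523 late in KO. At an unadjusted p under 0.05 there were 1281 such genes. With the replicate number as a block in place of sex, edgeR called none of the 13515 (600 at an unadjusted p under 0.05). Without the block, 2 limma fits called 8 and 3 genes and DESeq2 929.

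**Figure D5:**
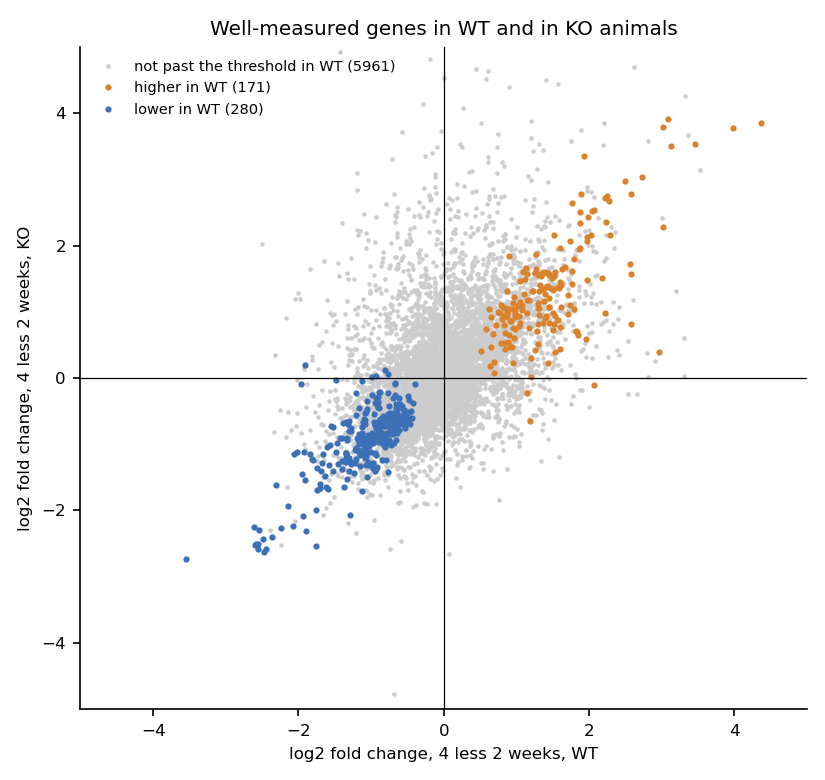
Log2 fold change between 4 and 2 weeks in WT (horizontal) and in KO (vertical) for the well-measured genes, each point 1 gene, coloured by the WT call; 21 genes lie outside the axes. Of 171 genes higher in WT 168 lie above 0 in KO, and of 280 lower genes 275 lie below 0.

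Within WT, the time change was compared between females and males. It differed for 5 of 14034 genes (0.0356%): Man2b2, Slc2a1, Bpnt1, Stc1 and Srd5a3, each with 0 counts in both 2-week females and counts in the males of that time. The count rests on single libraries: it was 0 without 4-week f and 1312 without 2-week f4.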

How the data were processed

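Gene counts of 17 libraries were deposited, 1 file per library. Per the submitters' processing notes, the authors trimmed reads with cutadapt, aligned them with STAR to GRCm38/mm10 and counted reads per gene with HTSeq 0.6.1p1; the annotation release and the strand setting are not given in the sources used here. Rows that name no gene were left out. In R 4.3.3, all 17 libraries were fitted with edgeR 4.0.16 (TMM scaling, low-count filter by genotype, quasi-likelihood test, a mean per genotype and time plus sex), and p-values were adjusted by Benjamini-Hochberg over all 13515 genes tested. Limma 3.58.1 (voom), DESeq2 1.42.0, other scalings and filters, and fits without each library were alternatives. The steps were tested on simulated counts. Exact permutation tests served for single library measures.

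Same-numbered WT libraries of the 2 times (m2 and m3) deviated from their group means with correlations of 0.0086 and -0.065, so the numbers were not taken to pair libraries across time. Same-numbered WT and KO libraries had correlations of -0.011 to 0.045 at 2 weeks (4 pairs) and of 0.13 to 0.46 at 4 weeks (3 pairs), where libraries with other numbers had -0.48 to 0.47; the labels do not say that a number marks a shared litter or day. Members and gene lists were chosen with earlier results of these data known. Names came from a rule: the 10 genes with the smallest p in each direction among well-measured, non-overlapping calls, 5 genes at the floor at 2 weeks, up to 3 called members of each list per direction, and sort and reference genes. Because copies of mitochondrial genes filled part of that ranking, the next genes after them were added after the values were seen, as were further list members. Some genes are not reported here. Promoters are from RefSeq (GRCm38.p6).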

Additional observations from a re-analysis of the deposited data

Results flagged for a closer look

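In groups of 4 or 5 libraries, a library was picked out where its distance to the nearest other was large beside the range of its group. This was examined in 229 groups of values of named genes and met in 9, where chance gives about 1 in 20, besides the marker sums. Scaled CPM of Igfbp3 in 4-week f3 (1096), Id2 in 4-week m3 (313) and Rbm39 in 2-week f4 (201) were high, and Rps3 in 4-week f (804) and Ccnd3 in 4-week m1 (154) were low. Among marker genes, Ngp in 4-week m2 (31.7), Itga2b in 2-week f1 (61.4), Itga2b in 4-week m1 (18.1) and Ptprc in 4-week m3 (2.31) stood apart. Of the summed markers, 2-week f1 was high for T and NK cells (1.14) and low for blood stem and progenitor cells (773), 2-week m3 was high for osteoblasts (345) and chondrocytes (34.7), and 4-week m2 had 0 for T and NK cells.

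The time change differed between KO and WT for 14 genes by the test of the difference, of which 10 had at most 1 count in every 2-week KO library and 3 in every 2-week WT library. Among the 3, Ces2e had a difference of -12.5 on the log2 scale (KO less WT): it was at 0 counts in every 2-week WT library, so this fitted value depends on the prior count and gives no size. Between males and females in WT, the time change differed for 5 genes, all at 0 counts in both 2-week females.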

How the results depend on the processing

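The direction of each of 103 named calls was the same under each alternative that tested the gene (all for 82, fewer for 21). The 21 include genes at the floor at 2 weeks, such as Arc and Ces2e. With almost no counts at 2 weeks their direction was fixed in advance, so their agreement adds no support. Calls also ended: 70 with the replicate block (Pecam1 then had an edgeR adjusted p of 0.145), 25 without 4-week f3 and m3, 22 and 23 in 2 limma fits, 11 without a low-count filter and 8 to 18 when 1 WT library was left out. The number of genes that passed in WT (1086) was 580 without a low-count filter, 639 with at least 10 counts in every library (310 higher, 329 lower), 2090 with DESeq2, 95 with a replicate block in place of sex (25 higher, 70 lower) and 419 without 4-week f3 and m3 (242 higher, 177 lower; chosen after seeing the data); leaving out 1 library gave 520 (4-week WT f) to 1398 (2-week KO f1). For well-measured genes (451) the counts were 292 without the filter, 830 with DESeq2, 76 with the replicate block (21 higher, 55 lower), 234 without f3 and m3, and 284 with 4-week WT f left out to 551 with 2-week KO f4 left out. With at least 10 counts in every library 310 of these were higher and 307 lower, and limma gave 121 and 290. For KO (1022) they were 567, 626, 2144, 104 and 559 in the order given for WT, and 604 to 1300. For the difference between KO and WT (14), they were 6 without the filter, 0 with at least 10 counts, 929 with DESeq2, 8 and 3 with 2 limma fits, 0 with the replicate block, 0 without f3 and m3, and 7 to 52. For the difference between sexes (5), DESeq2 gave 1232, and leaving out 1 library 0 to 1312. The block has fewer degrees of freedom, and fewer genes or libraries enter the filtered and left-out fits. Of the replicate numbers only m2 and m3, both male, occur at both times. With the block the times are therefore compared within those males only, although the numbers were not taken to pair libraries across time. Other causes were not tested. Without the block, 9 to 13 immediate early genes rose and 29 to 48 ribosomal protein genes fell (6 and 10 with it). In the same way 5 to 13 pan-endothelial (3 with the block), 4 to 8 chaperone (1), 4 to 9 basement membrane (1) and 0 to 3 Notch genes (0) rose, and 9 to 17 translation factors (3) and 3 to 6 interferon genes (2) fell. The median log2 fold change of all well-measured genes was between -0.17 with the block and 0.03 with a limma weight per time point. Reads carry no molecular identifiers, so depth counts reads and not molecules.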

Other observations

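Genes outside the lists with large changes were picked after their values were seen and were not tested as a group. Acta1, skeletal muscle actin, had the largest fall of all well-measured genes, from 186 ± 139.7 to 15.8 ± 7.25 scaled CPM (SD, n = 4 and 5; log2 fold change -3.55 ± 0.57 SE, edgeR adjusted p = 0.00171). Its values at 2 weeks were 119 (f1), 192 (f4), 378 (m2) and 54.6 (m3), so the spread within that group was wide. Among genes that rose were Adamts1, a secreted protease (log2 fold change 3.02 ± 0.87 SE), Gadd45g, a stress-response gene (3.02 ± 0.64 SE), Nfat5, the factor of osmotic stress (2.96 ± 0.51 SE), and Abcg1, a cholesterol exporter (2.58 ± 0.499 SE). Hsp90b1 and Pdia4, which fold proteins in the endoplasmic reticulum as Hspa5 does, rose by 1.21 ± 0.25 (SE) and 1.17 ± 0.33 (SE). Ftl1, the ferritin light chain, fell with Fth1 (-0.74 ± 0.11 SE), and Psme2, of the proteasome activator induced by interferon, fell by 0.65 ± 0.12 (SE).

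The 4-week libraries f3 and m3 resembled each other more than any other pair of the 9 (Pearson's r of 0.981 over well-measured genes). Kdr, the VEGF receptor, had 1857 (f), 484 (f3), 1739 (m1), 1563 (m2) and 562 (m3) scaled CPM at 4 weeks, low in both. Rgs5 had 2053 (f), 316 (f3), 921 (m1), 1379 (m2) and 412 (m3) and Cxcl12 2238 (f), 1062 (f3), 1976 (m1), 2448 (m2) and 1017 (m3), low in the same pair. Kdr did not pass between times (log2 fold change 0.98 ± 0.497 SE, edgeR adjusted p = 0.348). One of the pair is labelled female and the other male, and no label sets them apart from the other 4-week libraries. The split ran through the 4-week KO libraries too. In deviations from group means, f3 and m3 had correlations of 0.41 to 0.47 with KO f2 and m3 and of -0.48 to -0.34 with KO m1 and m2. WT f, m1 and m2 did the reverse (-0.40 to -0.12 and 0.13 to 0.46). The fit without WT f3 and m3 kept all KO libraries.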
